A study of Mus musculus with 5 samples.

Results

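Transcripts that mark white and brown fat were followed across 5 whole-heart arrays. They were chosen by name: Adipoq, Cfd, Fabp4, Plin1, Lep, Retn, Cidec, Cidea and Ucp1, and every probe set annotated to exactly 1 of these symbols was taken, whatever its value. Of the 9 genes, 7 had such a probe set, which gave 10 probe sets of 45037 on the array without its controls. Cfd and Plin1 had none listed in the annotation used and have no value here. The hearts came from untreated female mice, bled and perfused with saline, and total RNA was hybridized to Mouse Genome 430 2.0 arrays. The disease group held 3 NZB_W mice, the NZB by NZW cross that develops lupus nephritis by itself, aged 12 to 15 weeks and with moderate kidney injury by Austin score. The control group held 2 NZW mice of matched age with healthy kidneys. Strain and disease therefore differ together, and the controls are 1 parent strain, not a healthy mouse of the same cross. Xist, a transcript of female cells, did not read alike in these mice. Its probe set 1427263_at read 5.12, 5.35 and 5.36 on NZB_W arrays 1, 2 and 3, against 4.89 on NZW array 1 and 7.47 on NZW array 2. The cause of this gap between the 2 controls was not tested. The question followed here is whether fat was sampled alike in the hearts of both groups.

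Adipocytes store triglyceride in a lipid droplet coated with proteins such as perilipin, and secrete hormones such as adiponectin and leptin. Brown adipocytes differ in burning that fat for heat through the uncoupling protein of their mitochondria. On the heart, fat lies mainly outside the muscle, around the base of the heart and the groove between atria and ventricles, under the mesothelial sheet of the epicardium. In a sample of mixed cells, fewer cells of a type and less RNA per cell cannot be told apart.

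No fat transcript differed between the groups beyond the spread of the arrays. Adiponectin and resistin stood high in 1 control heart, NZW array 1, and adiponectin also varied among the NZB_W hearts. Leptin, Cidec and Ucp1 lay below the median of every array, whereas Fabp4 and Cidea lay above it on all 5. Of the 10 probe sets, 7 were bright enough to be tested, that is, above the median of the array on at least 2 arrays, and 0 of these 7 had a limma adjusted p under 0.05 or an unadjusted p under 0.05. Over all 22804 tested probe sets, 0.0219% passed the adjusted threshold and 5.25% had an unadjusted p under 0.05. The groups overlapped in all 10 fat probe sets, while 16.6% of tested probe sets had groups without overlap, 6.96% with NZB_W higher and 9.66% with NZB_W lower. The median log2 difference, NZB_W minus NZW, was -0.031 over the 10 probe sets and -0.15 over the 7 tested ones, against -0.013 over all tested probe sets. All values are on the deposited log2 scale, so a step of 1 is a 2-fold change, and probe sets are not set against each other for level.

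**Figure D1:**
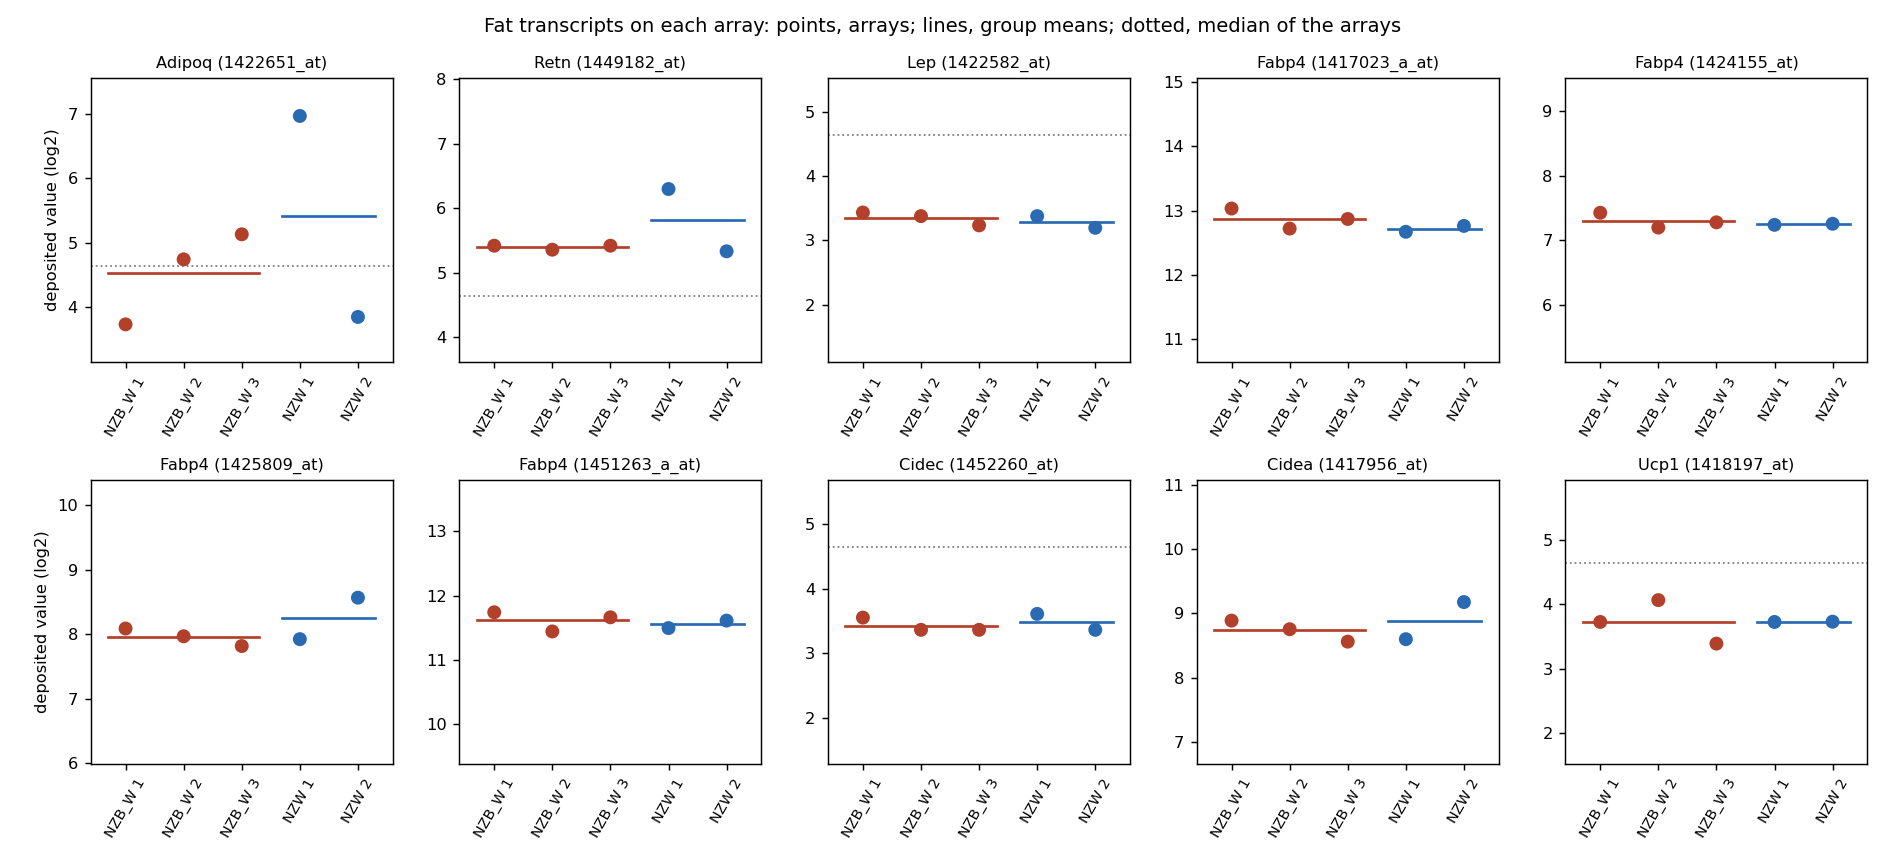
Deposited log2 value (vertical axes, each spanning the same number of log2 units) of the 10 fat probe sets on each array (horizontal axes), with NZB_W in red and NZW in blue. Lines are group means and dotted lines, where in range, are the mean of the array medians. Adipoq and Retn stand apart on NZW array 1 (6.97 and 6.30), and Lep, Cidec and Ucp1 lie under the dotted line on all 5 arrays.

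The secreted hormones come first. Adipoq encodes adiponectin, the most fat-restricted of them, and its probe set 1422651_at read 3.73, 4.74 and 5.13 on the NZB_W arrays (1, 2 and 3, in this order throughout) against 6.97 and 3.85 on the controls, NZW arrays 1 and 2. The highest and the second lowest of the 5 values were thus both controls, and the NZB_W values lay between or just below them. The arrays spanned 9.41-fold, the 2 NZW hearts alone 8.69-fold and the 3 NZB_W hearts 2.63-fold, and NZW array 1 was 3.57-fold above the next array. The NZB_W mean was 4.53 ± 0.721 (SD, n = 3) and the NZW mean 5.41 ± 2.21 (SD, n = 2), so that the NZB_W arrays differed by -0.87 (log2, SE 1.04, 95% interval -3.60 to 1.86, limma adjusted p = 0.901). The difference was 0.69 without NZW array 1 and -2.43 without NZW array 2, so the choice of control heart set its direction. NZB_W array 1 and NZW array 2 lay below the array median for Adipoq, so folds against them rest on dim values.

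Retn encodes resistin, a small cysteine-rich hormone that mouse adipocytes secrete. Its probe set 1449182_at read 5.42, 5.36 and 5.42 in the disease group against 6.30 and 5.33 in the controls. The values of the other 4 arrays lie within a narrow band and NZW array 1 stands alone above it, 1.84-fold over the next array. The log2 difference was -0.42 (SE 0.30, 95% interval -1.20 to 0.37, limma adjusted p = 0.883), and it was 0.067 without NZW array 1 and -0.90 without NZW array 2. Lep encodes leptin, the satiety hormone of white fat, and read 3.43, 3.38 and 3.23 in NZB_W against 3.38 and 3.19 in NZW. These values are near the lower quartile of the arrays (3.27 to 3.33), and NZW array 1, highest for Adipoq and Retn, did not stand out. Leptin was not bright enough to be tested, and in a fit with no brightness filter it differed by 0.062 (95% interval -0.19 to 0.32).

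The 250 bases before the annotated start of Adipoq, Retn and Lep are shown as a description. They are given by RefSeq for GRCm38.p6 and written in the direction of transcription. Capitals mark matches to 5 motifs searched on both strands: the TATA box TATAAA, the CCAAT box CCAAT, the site AGGTCA bound by nuclear receptors, a pair of such sites spaced by 1 base as bound by PPAR gamma with RXR, which holds the single site within it, and the C/EBP palindrome TTGCGCAA.
Adipoq, chr16:23146286-23146535, plus strand: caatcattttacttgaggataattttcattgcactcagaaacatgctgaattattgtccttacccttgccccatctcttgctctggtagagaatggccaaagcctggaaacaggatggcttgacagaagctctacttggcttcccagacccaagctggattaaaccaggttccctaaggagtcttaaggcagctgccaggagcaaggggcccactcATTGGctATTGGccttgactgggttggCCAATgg
Retn, chr8:3655520-3655769, plus strand: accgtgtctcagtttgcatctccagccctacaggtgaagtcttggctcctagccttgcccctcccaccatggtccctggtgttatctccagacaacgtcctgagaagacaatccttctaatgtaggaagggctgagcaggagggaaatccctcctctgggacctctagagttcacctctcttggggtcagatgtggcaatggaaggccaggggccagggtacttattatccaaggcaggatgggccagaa
Lep, chr6:29059971-29060220, plus strand: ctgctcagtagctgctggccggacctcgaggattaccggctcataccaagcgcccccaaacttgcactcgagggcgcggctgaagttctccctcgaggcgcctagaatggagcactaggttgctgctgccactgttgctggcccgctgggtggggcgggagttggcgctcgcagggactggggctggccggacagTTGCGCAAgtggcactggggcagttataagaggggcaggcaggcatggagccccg
The Adipoq window holds 3 CCAAT boxes, 2 of them on the opposite strand, beginning 34, 27 and 7 bases before the start. A CCAAT box is present in 33.8% of 32851 windows of this length. The Lep window holds 1 C/EBP palindrome, 55 bases before the start, a motif found in 0.164% of windows, and the Retn window holds no match to the 5 motifs. TATAAA occurred in 12.4% of windows, AGGTCA in 14.0% and the spaced pair in 0.0335%. Entries were found for 7 of the 9 genes, and AGGTCA in that of Ucp1, 14 bases before the start, was the other match among them. These matches describe letters in a short window and are not evidence of binding.

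Lipid handling proteins followed another pattern. Fabp4 encodes the adipocyte fatty acid binding protein, which the capillary endothelium of the heart also makes, and it had 4 probe sets, all above the median of every array. Probe set 1417023_a_at read 13.0, 12.7 and 12.9 in NZB_W against 12.7 and 12.8 in NZW, a log2 difference of 0.16 (SE 0.11, 95% interval -0.14 to 0.45, limma adjusted p = 0.883). NZW array 1 was the lowest of its 5 arrays, the reverse of its place for Adipoq. Probe set 1451263_a_at read 11.7, 11.4 and 11.7 against 11.5 and 11.6, and differed by 0.062 (95% interval -0.24 to 0.36).

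The other Fabp4 probe sets did not repeat one direction. Probe set 1424155_at read 7.43, 7.20 and 7.28 against 7.24 and 7.26, a difference of 0.053 (95% interval -0.18 to 0.29). Probe set 1425809_at read 8.09, 7.97 and 7.82 against 7.92 and 8.57, a difference of -0.29 (95% interval -0.86 to 0.29), with NZW array 2 alone at the top. Without NZW array 2 that difference was 0.034, and without NZB_W array 1 those of 1424155_at and 1451263_a_at were -0.0099 and -0.00073. Across the 5 arrays the 4 Fabp4 probe sets spanned 1.17-fold to 1.68-fold, against 9.41-fold for Adipoq.

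Of the lipid droplet proteins, Cidec promotes the fusion of droplets in white fat. It read 3.55, 3.36 and 3.36 in NZB_W against 3.61 and 3.36 in NZW. All of these lie below the array medians (4.62 to 4.68), and 3 arrays hold the identical value, so that no order can be read among them. Its difference, from the fit with no brightness filter, was -0.060 (95% interval -0.36 to 0.24).

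The brown fat transcripts did not share one level relative to the arrays. Ucp1 encodes the uncoupling protein itself and read 3.73, 4.06 and 3.39 in NZB_W against 3.73 and 3.73 in NZW, below the median on all 5 arrays, with a difference of -0.0012 (95% interval -0.59 to 0.59) in the fit with no brightness filter. Cidea, a droplet protein of brown fat, read 8.89, 8.75 and 8.56 in NZB_W against 8.60 and 9.18 in NZW, above the median on all 5 arrays. Cidea was highest on NZW array 2 and next to lowest on NZW array 1, so it did not follow Adipoq. It differed by -0.15 (SE 0.21, 95% interval -0.70 to 0.39, limma adjusted p = 0.908), and by 0.13 without NZW array 2. The label of brown fat is thus not borne out by Ucp1 at the level these arrays measured.

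**Figure D2:**
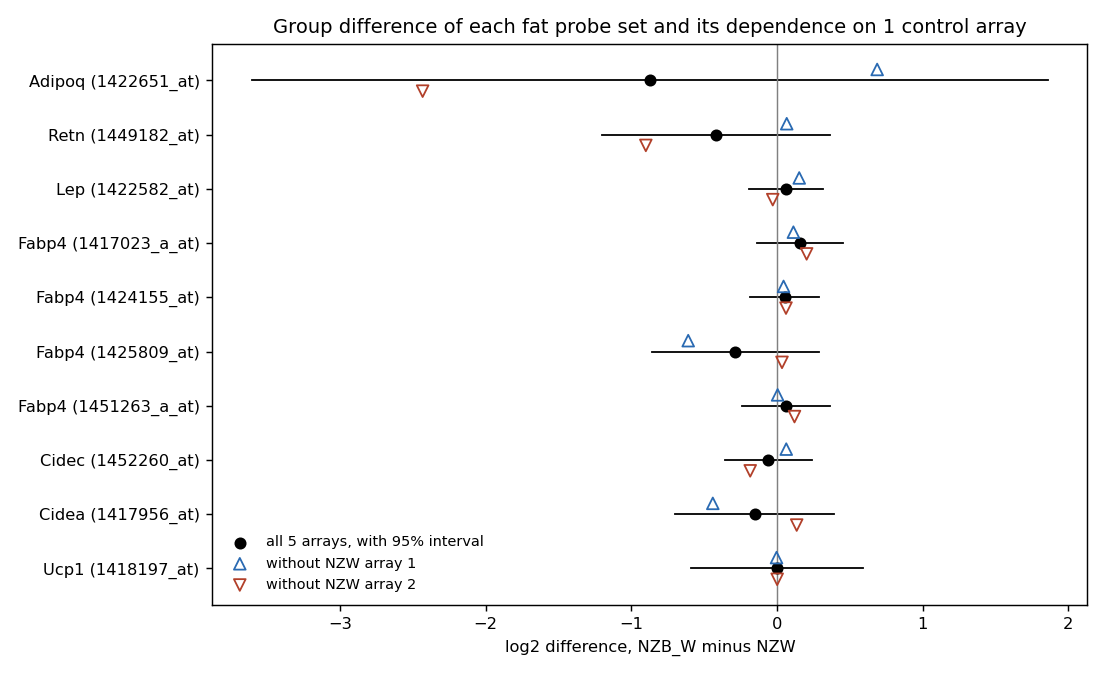
Log2 difference, NZB_W minus NZW (horizontal axis), for the 10 fat probe sets (vertical axis), from limma. Filled points with bars are the difference over 5 arrays and its 95% interval, and open triangles are the difference with 1 NZW array left out. Every interval spans 0, and Adipoq moves from -2.43 to 0.69 with the choice of NZW array.

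Genes of fat metabolism outside the named transcripts were read next, each by its brightest probe set. Of 11894 genes tested this way, 0.00841% passed the limma threshold, 7.59% had every NZB_W value above both NZW values and 9.84% had every NZB_W value below them. Among 25 genes of white fat and the lipid droplet, 24 had a probe set and 19 were tested: 6 were higher and 13 lower in NZB_W, 0 passed, and the median difference was -0.078, against -0.014 over all tested genes. The droplet coat proteins Plin4 and Plin2 differed by -0.20 (SE 0.11) and -0.17 (SE 0.094), and the glycerol channel Aqp7 by -0.48 (SE 0.26). Gpihbp1 went the other way, by 0.27 (SE 0.17). NZW array 1 was not the highest of the 5 in these probe sets, but in a second, dimmer probe set of Aqp7 (1418848_at) it was, at 5.65 against at most 5.39. Most genes of this list are also active in heart muscle, where lipoprotein lipase (Lpl) and Cd36 supply fatty acids for energy.

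Among 11 lipogenesis genes, all tested, 3 were higher and 8 lower in NZB_W, 0 passed, and the median difference was -0.10. NZW array 1 was the highest array in 5 of the 11, in 3 of the 19 white fat genes, and in 15.1% of all tested genes. Scd1, the desaturase that makes oleate, read 7.01, 7.35 and 7.85 in NZB_W against 9.60 and 7.003 in NZW. Fasn, fatty acid synthase, read 6.29, 6.39 and 6.87 in NZB_W against 7.52 and 6.46 in NZW. Both thus repeated the lone high value of NZW array 1, 3.35-fold over the next array for Scd1 and 1.58-fold for Fasn. Thrsp, a nuclear protein of lipogenic tissues, differed by -0.33 (SE 0.15, limma adjusted p = 0.883).

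The transcription factors of fat cells and the receptors of fat hormones did not single out NZW array 1. Of 9 tested adipogenic factors, 4 were higher and 5 lower in NZB_W, with 0 passing and a median of -0.055. Pparg, the master regulator of adipocyte differentiation, read 6.95, 6.77 and 6.77 in NZB_W against 6.70 and 6.84 in NZW. Cebpd, a C/EBP factor of early adipogenesis and of stress responses, differed by 0.68 (SE 0.12, limma adjusted p = 0.555), with every NZB_W value above both controls. Of 6 tested receptor genes, 3 were higher and 3 lower, with 0 passing and a median of 0.016, and the adiponectin receptors Adipor1 and Adipor2 differed by 0.10 (SE 0.11) and 0.13 (SE 0.080). Of 8 tested brown fat genes, 3 were higher and 5 lower, with 0 passing and a median of -0.036. Ppargc1a differed by -0.32 (SE 0.14, limma adjusted p = 0.883), with every NZB_W value below both controls and NZW array 1 the highest. It was the only 1 of the 8 with groups apart in that direction, against 9.84% of all tested genes. Among its other probe sets, 1434099_at, 1434100_x_at and 1460336_at also had every NZB_W value below both controls, the last with NZW array 2 on top. Probe set 1437751_at did not separate the groups, because NZB_W arrays 1 and 2 held the same value as NZW array 2 (9.70). Dio2, the enzyme that activates thyroid hormone in brown fat, read 4.41, 4.19 and 6.62 in NZB_W against 5.09 and 4.56 in NZW, so its high array was NZB_W array 3. NZW array 1 was the highest in 2 of the 9 adipogenic factors, 1 of the 6 receptor genes and 2 of the 8 brown fat genes. At an unadjusted p under 0.05 the count was 1 among the adipogenic factors and 0 in the white fat, lipogenesis, receptor and brown fat lists.

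The array pattern of the fat transcripts was then set beside single genes. Their profile was the mean of the centred values of Adipoq, Retn and Cidea, the tested genes without Fabp4, and it stood at -0.40, -0.13 and -0.045 in NZB_W against 0.87 and -0.30 in NZW. Adipoq alone stood at 2.08 on NZW array 1, where Cidea was next to lowest, so the profile is not shared by all of its genes. Of 347 genes that varied across arrays (SD of at least 0.5), the 10 most alike by Pearson correlation over the 5 arrays were Ryr3, Scd1, Gpm6a, Slc39a8, Fasn, Hamp, Stk26, Igfbp5, Myl1 and Mmp3, with r from 0.939 to 0.997. The least alike were Slc15a2 (r = -0.95), Cxcl9, Ifit3, Myh7 and Cdkn1a. With Adipoq alone as the profile, chosen after the values were seen, 6 of the 10 most alike were shared, and Car3 entered at r = 0.96. Each r is a description over 5 arrays from the same hybridizations, in which a single high array can carry the value.

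Car3, carbonic anhydrase 3, is abundant in fat cells and slow muscle. Its brightest probe set (1449434_at) read 5.21, 6.88 and 8.12 in NZB_W against 9.33 and 5.85 in NZW, a span of 17.4-fold. A dimmer probe set of Car3 (1460256_at) read 5.36, 5.79 and 5.79 against 8.14 and 5.44. The brightest set put the arrays in the same order as Adipoq: NZB_W 1, NZW 2, NZB_W 2, NZB_W 3 and NZW 1 from low to high.

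Some atrial markers put the arrays in that order too. Myl7, the atrial myosin light chain, read 3.87, 10.2 and 13.0 in NZB_W against 13.1 and 4.76 in NZW, a span of 618-fold, with the arrays again in the order of Adipoq. Sln, the atrial calcium pump regulator sarcolipin, read 3.89, 8.82 and 11.8 against 11.9 and 4.28, and the atrial light chain Myl4 read 5.09, 9.60 and 12.3 against 12.6 and 4.84. By their brightest probe sets, Sln kept the order of Adipoq, Myl4 and Dkk3 exchanged the lowest 2 arrays, and Tbx5 exchanged NZW 2 and NZB_W 2. Nppa and Nr2f2 did not follow it, both being highest on NZB_W array 3. A second Dkk3 probe set (1448669_at) also had NZB_W array 3 on top, at 8.33 against 8.18 on NZW array 1. A dim second probe set of Sln (1420883_at) did not keep the order. NZB_W array 1 and NZW array 2 thus lay under the array median for Myl7 or close to it, and NZW array 1 and NZB_W array 3 were near the top of the scale. Of 9 atrial genes 7 were tested, with centred medians of -1.75, -0.13 and 2.19 on the NZB_W arrays and of 2.49 and -1.97 on the controls, and NZW array 1 was the highest in 5 of 7. Their summed linear level ran from 10554 to 33650 in NZB_W and from 7493 to 33400 in NZW, and on NZB_W array 1 and NZW array 2 most of it was Nppa.

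The mesothelial sheet over the epicardium was read in the same way. Upk3b, a uroplakin of mesothelial cells, read 4.09, 4.14 and 4.14 in the disease group against 6.33 and 3.91 in the controls, and Lrrn4 read 3.14, 2.85 and 2.90 against 4.68 and 3.14. Both repeat the lone high value of NZW array 1. Tcf21 and Krt19 also had that array on top, at 8.14 against at most 7.70 and at 4.39 against at most 4.03. Krt8 and Msln, mesothelin, had it on top by only 0.0046 and 0.067. Msln (3.58 to 4.27) and Krt19 stayed below the array medians throughout. Wt1, Upk1b, Krt18 and Tbx18 did not have NZW array 1 on top. Of 10 mesothelial and epicardial genes 4 were tested, without Upk3b and Lrrn4, and NZW array 1 was the highest in 2 of the 4. The summed linear level of the 4 ran from 335 to 380 in NZB_W and from 334 to 426 in NZW, and most of it was Tcf21. Bmp10, a growth factor of the right atrium, was also highest on NZW array 1 (5.96, against 4.19 to 4.33 elsewhere). The part of atrial and mesothelial tissue in the fat values was not tested.

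On NZB_W array 3 the Myl7 value was within 0.13 of that of NZW array 1 on the log2 scale, both high on the scale, while the Adipoq value was 1.84 lower and the Retn value lay among those of the other arrays. Of the ventricular markers, the light chain Myl2 read 14.1 to 14.3, next to the array maxima (14.2 to 14.3), so that its steadiness cannot be read. The array medians of 5 tested ventricular genes ran from -0.067 to 0.012, and Myh7, the slow myosin heavy chain, read 13.3, 12.3 and 13.9 in NZB_W against 10.7 and 12.2 in NZW. The 8 cardiomyocyte markers were bright on every array, as the label of heart requires, and several, such as Mb, Myh6 and Actc1, also lay next to the array maxima. The array medians of 12 capillary endothelial genes were 0.019, -0.031 and 0.18 on the NZB_W arrays and -0.11 and -0.075 on the controls. NZW array 1 was thus the lowest by this median, close to NZW array 2, although Emcn of this list was highest on NZW array 1. The brightest Fabp4 probe set was also lowest on NZW array 1, whereas the other Fabp4 probe sets were lowest on NZB_W array 2 or 3. Of the 12 endothelial genes 10 were higher in NZB_W, with 0 passing in limma and 1 at an unadjusted p under 0.05.

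**Figure D3:**
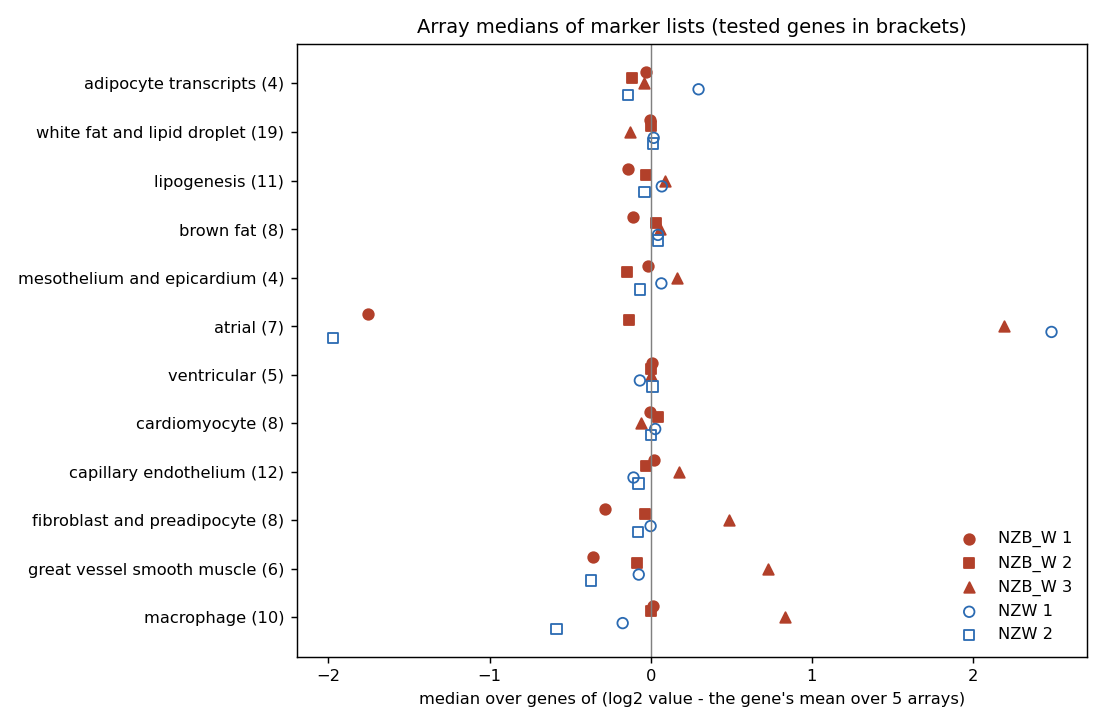
Array medians of the centred log2 values (horizontal axis) for 12 gene lists (vertical axis, with the number of tested genes in brackets), NZB_W filled in red and NZW open in blue. Atrial genes spread from -1.97 to 2.49 across arrays without separating the groups. The fat transcripts place NZW array 1 at 0.30, a median of 4 genes that disagree. Adipoq and Retn were highest on that array, whereas Cidea was next to lowest and the brightest Fabp4 probe set lowest.

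Lists for other tissues that can be taken with a heart gave few tested genes. Of the thymus markers 3 of 11 were tested, of the lung markers 2 of 8, and of the skeletal muscle markers 4 of 10. At an unadjusted p under 0.05 the count was 1 in the skeletal muscle list and 0 in the other 2. That gene, Acta1, read 11.9, 12.1 and 13.0 in NZB_W against 11.2 and 11.4 in NZW. It differed by 1.05 (SE 0.36, limma adjusted p = 0.883). Rag1, Dntt and Ptcra of the thymus and Scgb1a1 and Sftpd of the lung lay below the medians of all arrays. The tested genes, Cd4, Cd3e and Cd1d1 of the thymus and Sftpc and Sftpb of the lung, lay above the medians on all 5. Sftpb read 6.69, 6.49 and 6.28 in NZB_W against 6.49 and 6.28 in NZW. Lymph node markers gave 2 tested genes of 10, one of which, the chemokine Cxcl13, read 6.37, 5.49 and 7.77 in NZB_W against 6.80 and 4.70 in NZW. Among the tested genes of these lists, Pvalb, a calcium-binding protein of fast muscle, was alone in having NZW array 1 on top, at 5.24 against 4.93 on the other 4 arrays. Smooth muscle genes of the great vessels did not follow the fat hormones: all 6 were tested, NZW array 1 was the highest in 0 of them, and their centred medians were -0.36, -0.083 and 0.73 on the NZB_W arrays and -0.074 and -0.37 on the controls. The 10 macrophage genes and the 3 tested erythroid genes were all higher in NZB_W, by a median of 0.71 and 2.19, with 0 passing in limma and 3 and 1 at an unadjusted p under 0.05, and NZW array 1 was the highest in 0 of either. Of 8 tested fibroblast and preadipocyte genes 6 were higher in NZB_W, with 0 passing in limma and a median of 0.076. The 1 gene at an unadjusted p under 0.05, Lum, was lower in NZB_W, by -0.26 (SE 0.088).

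Over the tested probe sets, pairs of arrays correlated at 0.973 to 0.993. The deposited values hold exact repeats, and 63.1% of all probe sets have the same value on at least 2 arrays, compared to 6 decimals, as do 4 of the 10 fat probe sets (Cidec, Lep, Retn and Ucp1). Among tested probe sets the share is 47.1%, and of the 7 tested fat probe sets Retn alone has such a repeat. Retn reads the same on 2 of the NZB_W arrays, so that its spread within that group rests on 2 distinct values. Titles call the arrays biological replicates.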

How the data were processed

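Expression levels were deposited on a log2 scale, 1 value per probe set and array. RMA, GCRMA and Partek are named in the submitters' processing notes, with neither role nor version, and the sources used here do not settle which of them gave the values. The methods differ in how much dim signal they remove, which alters folds of dim probe sets most. All 5 columns matched a sample by accession, and groups came from titles. Probe sets took their symbol from the platform annotation, and the Entrez identifiers of all 10 fat probe sets named the same symbol in RefSeq (GRCm38.p6).

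Probe sets above the array median on at least 2 arrays (22804) were tested with limma 3.58.1 in R 4.3.3, two-sided, with Benjamini-Hochberg adjustment over all of them and a threshold of 0.05. The test was run on simulated data first. A gene outside the fat transcripts was read by its brightest probe set (highest mean over arrays). Members and lists were chosen with earlier results of these data known. Named genes are the fat transcripts, up to 4 genes with the smallest p per list, and the genes most and least alike in pattern. Car3, Pparg, Dio2, Upk3b, Lrrn4, Msln, Bmp10, Myl7, Sln, Myl4, Dkk3, Tbx5, Nppa, Nr2f2, Wt1, Upk1b, Krt8, Krt18, Krt19, Tbx18, Tcf21, Myl2, Mb, Myh6, Actc1, Emcn, Cxcl13, Pvalb, Xist and the thymus and lung genes were named after their values were seen. Figures used matplotlib 3.10.9. Scanner files were not used here, so there are no detection calls.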

Additional observations from a re-analysis of the deposited data

How the results depend on the processing

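Under every setting tried, 0 fat probe sets passed the limma threshold (smallest unadjusted p in the main setting 0.222). Over all tested probe sets, 5 passed in the main setting, 2 with no brightness filter, 2 when brightness was required on all 5 arrays, 16 with array weights, 3 when sets named _s_at, _x_at or _a_at were left out, 12 at an adjusted p under 0.1, and 0 to 2 with 1 array left out. With replicate number as a replicate block, 0 of all tested probe sets passed, although the labels give these numbers no shared litter, batch or day, and deviations of same-numbered arrays correlated at -0.031 (number 1) and 0.035 (number 2). The median difference of the fat probe sets was -0.11 over the 8 of them not so named, and -0.096 to 0.054 with 1 array left out. Signs turned under array weights for Fabp4 1424155_at (-0.0032) and 1451263_a_at (-0.040), and the mean of the Fabp4 probe sets differed by -0.0037, against positive values for 1417023_a_at, 1424155_at and 1451263_a_at. With 1 array left out the ranges were -2.43 to 0.69 for Adipoq, -0.90 to 0.067 for Retn, -0.44 to 0.13 for Cidea, -0.61 to 0.034 for Fabp4 1425809_at, -0.0099 to 0.10 for 1424155_at, -0.00073 to 0.15 for 1451263_a_at and 0.079 to 0.23 for 1417023_a_at, and, among those not tested, -0.17 to 0.17 for Ucp1, -0.029 to 0.15 for Lep and -0.18 to 0.063 for Cidec. The cause of these changes was not tested beyond the array left out, and where 1 NZW array remains it is assumed to vary like the other arrays. On the linear scale Adipoq differed by -1.48 as a log2 ratio of group means. Quantile normalization, median centring and an intensity trend turned no sign of a tested fat probe set. The near-zero difference of Ucp1, which was not tested, became 0.18 with array weights and 0.025 on the linear scale. With Adipoq alone as the profile, an alternative added after the data were seen, 18 genes had an r over 0.9, against 16. With 2 control arrays and dim values for Lep, Cidec and Ucp1, small differences in these genes were not detectable.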

Other observations

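Transcripts of several kinds repeated the lone high value of NZW array 1. Of 22804 tested probe sets, 20 were at least 1 log2 unit higher on that array than on each of the other 4, which is 0.0877%, and 16 of them carry 1 symbol, from 14 genes chosen here by their values. The requirement of brightness on 2 arrays removes probe sets that are bright on 1 array alone. In an alternative added after the data were seen, all 45037 probe sets were taken and brightness was required on the high array alone, which gave 29 on NZW array 1 (0.0644%). The mesothelial Upk3b then had the largest gap to the next array (2.94 by 1454881_s_at, and 2.19 by 1434237_at), with Car3 (1460256_at, 2.36), Adipoq (1.84), the matrix protease Mmp3 (1.75) and Scd1 (1.74) among the first 6 probe sets. The atrial Bmp10 (1.63) and the mesothelial Lrrn4 (1.54) also entered. Both counts held Kcnj3, a subunit of the atrial acetylcholine-gated potassium channel, on 2 probe sets (1.20 and 1.02), the natriuretic peptide clearance receptor Npr3 (1.26), the myosin light chain Myl1 (1.39), the calcium release channel Ryr3 (1.36) and Hamp (1.13), as well as Slc39a8, Sytl2, Gpm6a, Mrap2 and Pirt. Among tested probe sets 155 stood out in this way on NZB_W array 3 (0.68%), 5 on NZW array 2 (0.0219%) and 0 on NZB_W arrays 1 and 2, and among all probe sets 198, 9, 1 and 1.

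Hamp, which encodes hepcidin, the hormone that limits iron export, had 2 probe sets that put NZW array 1 on top. Its brighter probe set 1419197_x_at read 7.75, 8.10 and 8.62 in NZB_W against 9.34 and 7.84 in NZW, which places the arrays in the order of Adipoq. Ifit3 and Cxcl9, interferon-induced genes, were among the genes least like the fat profile. Ifit3 read 8.40, 8.34 and 8.53 in NZB_W against 7.11 and 7.84 in NZW, so its lowest array was the one with the highest Adipoq value.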
